A study of Arabidopsis thaliana with 12 samples.

Results

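The genes described here are transcription factors of 13 plant families that carry a family symbol (such as WRKY53 or TCP15), taken wherever an array probe set was annotated to a single nuclear gene with such a symbol. The rule covered the MYB, WRKY, ERF, NAC, DOF, GATA, TCP, TGA, bHLH, HB, ARF, NF-Y and SPL symbols and used no measured value. It found 14 genes, each with 1 probe set, among 13217 nuclear genes with a probe set of 1 gene. They were 5 bHLH genes (bHLH34, AT3G23210; bHLH104, AT4G14410; bHLH115, AT1G51070; bHLH121, AT3G19860; BHLH101, AT5G04150), 6 WRKY genes (WRKY6, AT1G62300; WRKY20, AT4G26640; WRKY22, AT4G01250; WRKY42, AT4G04450; WRKY47, AT4G01720; WRKY53, AT4G23810), TCP15 (AT1G69690), NAC014 (AT1G33060) and MYBC1 (AT2G40970). The symbols of 490 nuclear genes of the TAIR10.1 gene table fit the same rule, so the 14 are a small share of the genes with such symbols. Whether all 490 are transcription factors was not checked. The others, including every gene with an ERF, DOF, GATA, TGA, HB, ARF, NF-Y or SPL symbol, were not analysed here. Some family members under other names are given further below. By their annotation all 14 are transcription factors, although MYBC1 is a MYB-like factor with a single repeat and not one of the large group with a pair of repeats.

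A transcription factor binds short DNA motifs and sets how often nearby genes are read, and the families named here are defined by the protein fold that makes that contact. The bHLH genes of this set are known from the response to low iron. In Arabidopsis bHLH34, bHLH104 and bHLH115, with the related ILR3, switch on other bHLH genes such as BHLH101, and bHLH121 acts with them. WRKY factors bind W-box motifs and are best known from defence and leaf senescence, TCP factors control cell division and growth, and many NAC factors act in stress and ageing.

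The study grew Arabidopsis thaliana of the Landsberg erecta (Ler) background on MS agar plates and compared the wild type with atbzip16, a line named after the transcription factor bZIP16. The labels give neither an allele nor a number of lines for atbzip16, and the level of bZIP16 itself was not analysed here. Both genotypes were grown for 4 days, either etiolated in darkness or in long days of red light with a fluence rate of 0.5 µmol m-2 s-1, and RNA came from their aerial parts. Each of the 4 groups, dark Ler, dark atbzip16, red-light Ler and red-light atbzip16, had 3 biological replicates on 1 array each. The 12 arrays set the limit of precision throughout.

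Values are array signals on a linear scale, and the signal of 1 probe set is not comparable with that of another. Median signal per array lay between 148.3 and 186.1. Here and below, a listed gene is called measured where a probe set was annotated to it alone. The other listed genes may still have a probe set on the array. Of the marker genes for green tissue, 3 of 9 were measured and their summed signal was 6731 to 12098 in the dark and 27669 to 55110 in red light. Of 15 seed markers 5 were measured, with a summed signal of 20940 to 39038 in dark Ler, 50671 to 68670 in dark atbzip16 and 461.2 to 606.5 in red light. PAP85 made up much of the dark seed sums, with signals of 10913.4 to 21600.9 in dark Ler and 26608.3 to 34501.1 in dark atbzip16. The only measured root marker of 13, EXPA7, had signals of 2.9 to 96.5. In these whole-tissue samples, a change in the share of a cell type and a change of RNA per cell cannot be told apart.

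Signals of WRKY42 (5.8 to 58.5), BHLH101 (2.2 to 91.7) and WRKY53 (6.5 to 69.6) lay low. Their geometric mean over the 12 arrays was under 41.6, the level below which 30% of all probe sets fell by that measure. The other 11 genes lay above it. The spread between replicates of these 3 genes reached several-fold, so that their values carry the widest intervals below.

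**Figure D1:**
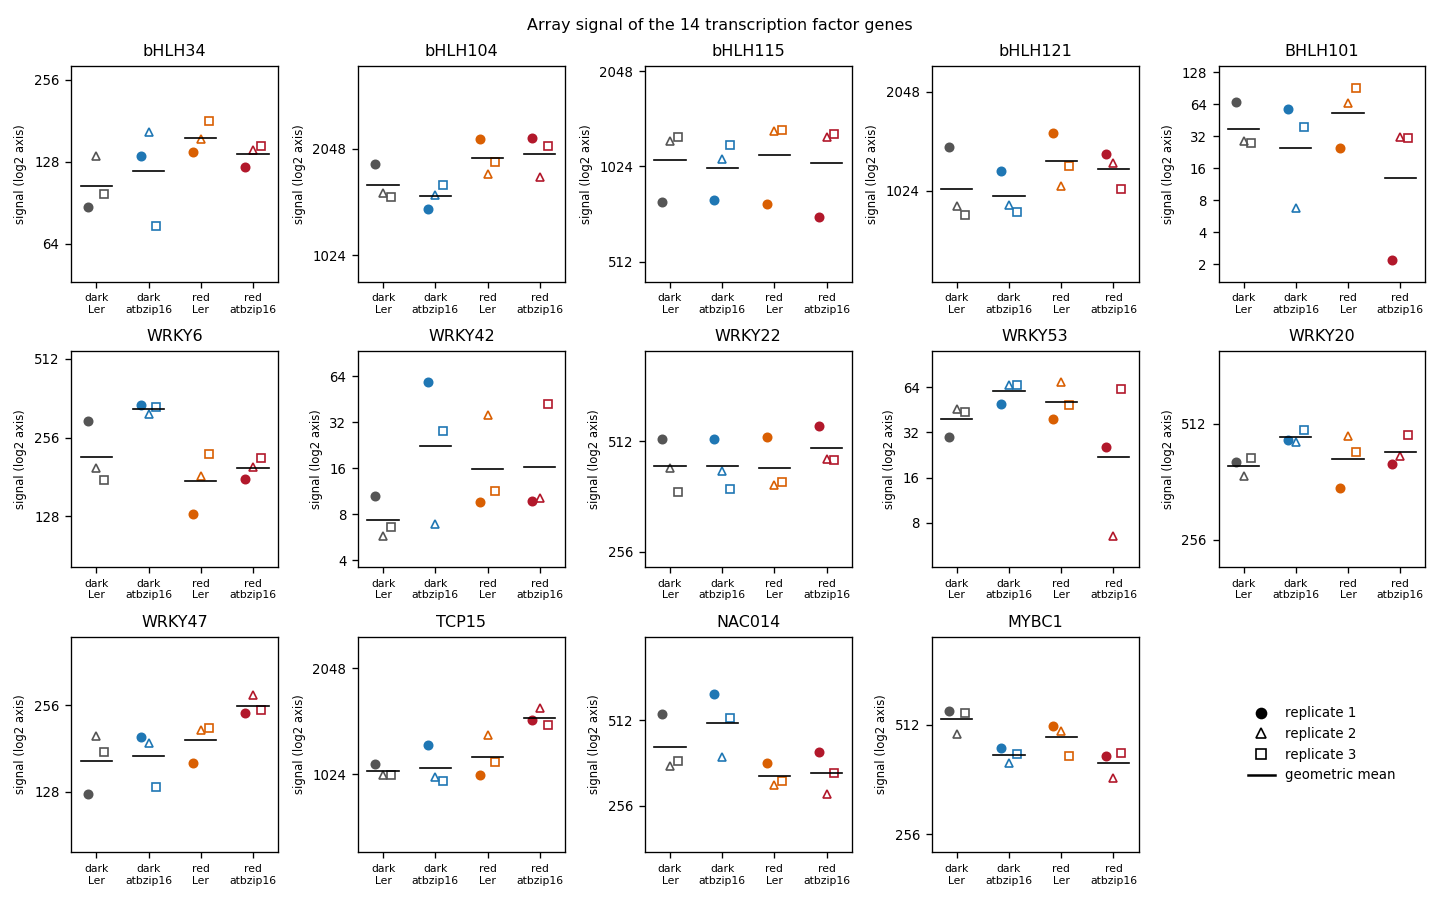
Signal of each of the 14 genes on the 12 arrays (vertical axes, log2 scale, a range of its own for each gene), by group, with 1 marker shape for each replicate number and a line at the geometric mean of the 3 arrays. TCP15 has its 3 highest signals in red-light atbzip16 (1416.5 to 1576.3), and bHLH115 is lowest in replicate 1 of every group (708.7 to 801.8).

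Among the 14 genes, TCP15 alone was called by limma in any of the comparisons when arrays were not paired by replicate number. TCP15 is a class I TCP factor that, with its relative TCP14, is known to promote growth during germination and stem elongation. Its signals in dark atbzip16 were 1238.6, 1001.4 and 980.7, and in red-light atbzip16 they were 1461.0, 1576.3 and 1416.5. All 3 red-light arrays were above all 3 dark ones. TCP15 rose by 0.47 on the log2 scale, 1.39-fold (SE 0.13, 95% interval 0.19 to 0.76, n = 3 arrays per group, limma adjusted p = 0.039, and 0.00943 with the replicate number as a block). In Ler the signals were 1096.5, 1017.4 and 1020.3 in the dark and 1020.5, 1322.2 and 1107.6 in red light. These groups overlapped, and the log2 fold change was 0.13 (95% interval -0.15 to 0.41, limma adjusted p = 0.662). The difference between the light responses of the genotypes was itself 0.34 (95% interval -0.06 to 0.74) and did not pass (limma adjusted p = 1). The call in atbzip16 was close to the threshold. It ended without the variance trend of the fit (adjusted p = 0.107) and in 8 of the 12 fits that left out 1 array, where the adjusted p lay between 0.0219 and 0.15 over all 12. These 8 left out dark Ler replicate 2 or 3, dark atbzip16 replicate 2 or 3, red-light Ler replicate 3 or any 1 of the red-light atbzip16 arrays. The fold change itself lay between 0.41 and 0.58 over the 12 fits. The summed seed and green-tissue markers given above moved with light in the same arrays, and their part in the change of TCP15 was not tested.

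WRKY6, a factor known from senescence, defence and phosphate supply, had its highest signals in dark atbzip16, with 342.2, 314.5 and 335.2. They were 177.5, 198.0 and 213.4 in red-light atbzip16, all below the dark ones. The log2 fold change was -0.76 (95% interval -1.28 to -0.23), which limma did not call (adjusted p = 0.0747) and called as a fall with the replicate block (adjusted p = 0.0426). In Ler, WRKY6 signals were 295.7, 195.7 and 175.7 in the dark and 131.2, 182.7 and 221.5 in red light, which overlap. The log2 fold change there was -0.31 (95% interval -0.84 to 0.21, limma adjusted p = 0.55). In the dark, all 3 atbzip16 arrays were above all 3 Ler arrays, by 0.61 on the log2 scale (95% interval 0.08 to 1.13), which did not pass either (limma adjusted p = 0.771, and 0.336 with the block). The seed markers also had higher summed signals in dark atbzip16 than in dark Ler. Of the measured ones, PAP85, M10, M17 and AGL67 were higher there. OLEO3 was lower (log2 difference -0.36, 95% interval -0.94 to 0.21). Limma called none of these differences without the block, where 0.0791% of all probe sets were called. With the block it called only that of PAP85 (limma adjusted p = 0.0164), where 1.12% of all probe sets were called. The part of the seed markers in the difference of WRKY6 was not tested.

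Of the other WRKY genes, none passed in any comparison by limma, with or without the block. WRKY47 had signals of 126.2, 200.3 and 175.7 in dark Ler and 161.4, 210.8 and 212.8 in red-light Ler. In atbzip16 they were 199.2, 188.8 and 133.0 in the dark and 241.3, 277.2 and 246.3 in red light. Red-light atbzip16 thus stood above both dark atbzip16 and red-light Ler on all 3 arrays. The log2 light response of WRKY47 in atbzip16 was 0.57 (95% interval 0.05 to 1.1, limma adjusted p = 0.19, and 0.106 with the block), and in Ler it was 0.23 (95% interval -0.29 to 0.76).

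WRKY22, which acts downstream of immune receptors and in senescence brought on by darkness, had the log2 light response nearest to 0 of this family in Ler. Its signals were 519.7, 434.6 and 372.9 in dark Ler and 526.5, 389.4 and 397.2 in red-light Ler. In atbzip16 WRKY22 had 519.0, 425.9 and 379.7 in the dark and 563.2, 458.7 and 455.4 in red light. The groups overlapped in both genotypes, with log2 fold changes of -0.02 (95% interval -0.41 to 0.38) and 0.16 (95% interval -0.23 to 0.56).

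WRKY20 had signals of 406.8, 375.0 and 416.6 in dark Ler and 348.0, 477.2 and 432.9 in red-light Ler. In atbzip16 the WRKY20 signals were 465.0, 458.3 and 494.8 in the dark and 403.4, 421.9 and 478.3 in red light. The dark atbzip16 arrays were all above the dark Ler arrays, and the other pairs of groups overlapped. The difference between genotypes in the dark was 0.24 on the log2 scale (95% interval -0.08 to 0.57, limma adjusted p = 0.938).

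WRKY53, a promoter of leaf senescence, had signals of 29.8, 45.8 and 43.6 in dark Ler and 39.5, 69.6 and 48.7 in red-light Ler. In dark atbzip16 WRKY53 had 49.5, 66.1 and 66.0, and in red-light atbzip16 it had 25.7, 6.5 and 61.9. A single array, red-light atbzip16 replicate 2, was far below the rest. The log2 light response was -1.46 in atbzip16 (95% interval -2.96 to 0.03, limma adjusted p = 0.247), and without that array it was -0.59. WRKY42, which with WRKY6 represses a phosphate exporter gene, had signals of 5.8 to 58.5, and its replicates ran from 6.9 to 58.5 within dark atbzip16 alone. Its largest difference was 1.6 on the log2 scale, for atbzip16 against Ler in the dark (95% interval -0.39 to 3.6, limma adjusted p = 0.921). It was 0.91 without dark atbzip16 replicate 1 and 2.46 without dark atbzip16 replicate 2.

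Among the iron-response bHLH genes, bHLH104 was called for light in atbzip16 with the replicate block, and the other 4 were called in no comparison between groups. bHLH104 had signals of 1858.0, 1533.6 and 1498.3 in dark Ler and 2178.1, 1738.6 and 1882.5 in red-light Ler. In atbzip16 they were 1378.7, 1519.7 and 1614.0 in the dark and 2198.6, 1704.7 and 2084.6 in red light, where all 3 red-light arrays were higher. The log2 fold change of bHLH104 was 0.40 in atbzip16 (95% interval 0.10 to 0.70), not called by limma (adjusted p = 0.0992) and called as a rise with the replicate block (adjusted p = 0.0203). In Ler it was 0.25 (95% interval -0.05 to 0.55, limma adjusted p = 0.374, and 0.172 with the block).

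bHLH34 had signals of 87.0, 134.6 and 97.5 in dark Ler and 138.7, 155.3 and 180.3 in red-light Ler. Among the 14 it alone had dark and red-light Ler arrays that did not overlap. Its log2 fold change in Ler was 0.59 (95% interval -0.10 to 1.28), the smallest p of the set in that comparison, and did not pass (limma adjusted p = 0.351). In atbzip16 bHLH34 had 134.3, 164.4 and 74.4 in the dark and 122.9, 141.9 and 146.3 in red light, which overlap (log2 fold change 0.21, 95% interval -0.48 to 0.90).

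bHLH121 had signals of 1395.7, 921.8 and 865.8 in dark Ler and 1537.7, 1057.3 and 1220.4 in red-light Ler. In atbzip16 the signals of bHLH121 were 1177.8, 924.1 and 881.3 in the dark and 1326.9, 1243.2 and 1036.7 in red light. The groups overlapped, although each red-light array was above the dark array of the same replicate number in both genotypes. The log2 fold change was 0.28 in Ler (95% interval -0.15 to 0.70) and 0.28 in atbzip16 (95% interval -0.15 to 0.70), with limma adjusted p values of 0.501 and 0.476, and 0.122 and 0.111 with the block. bHLH115 had the smallest differences of the family in both genotypes, 0.05 in Ler (95% interval -0.54 to 0.65) and 0.06 in atbzip16 (95% interval -0.54 to 0.65). Its signals spread far more by replicate number, as given below.

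BHLH101, a target of the other bHLH genes under low iron, had signals of 67.6, 28.6 and 27.3 in dark Ler and 24.9, 65.4 and 91.7 in red-light Ler. In atbzip16 they were 57.2, 6.8 and 39.2 in the dark and 2.2, 31.5 and 30.5 in red light. All groups overlapped. The log2 difference of atbzip16 from Ler in red light was -2.05, and its interval ran from -4.35 to 0.25 (limma adjusted p = 0.964). Without red-light atbzip16 replicate 1 it was -0.78, so this value rested largely on 1 array with a signal of 2.2.

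Of the list of 13 bHLH genes of the iron response, 7 were measured, in the sense of a probe set annotated to that gene alone. In Ler, limma called none of the 7 for light, with or without the block, and in atbzip16 it called none without the block and bHLH104 with it. Over all probe sets, 7.25% were called for light in Ler and 8.86% in atbzip16, and 15.4% and 17.6% with the block. The median log2 light response of the 7 was 0.25 in Ler and 0.21 in atbzip16. The members of this list outside the symbol rule were ILR3, which works with bHLH34, bHLH104 and bHLH115, and PYE, a repressor of the same response. ILR3 had a log2 light response of 0.07 in Ler and 0.10 in atbzip16, and PYE one of 0.13 and 0.25, none of which passed.

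NAC014 belongs to the NAC factors that are held at a membrane before they are released to the nucleus. Its signals were 536.8, 352.4 and 369.0 in dark Ler and 360.4, 303.4 and 313.5 in red-light Ler. In atbzip16 NAC014 had 631.2, 379.7 and 523.4 in the dark and 396.1, 280.2 and 333.2 in red light. The dark and red-light arrays overlapped in both genotypes, but the red-light array was the lower in all 3 pairs of the same replicate number. The log2 fold change was -0.59 in atbzip16 (95% interval -1.06 to -0.11), not called by limma (adjusted p = 0.131) and called as a fall with the replicate block (adjusted p = 0.00817). In Ler it was -0.34 (95% interval -0.82 to 0.13, limma adjusted p = 0.445, and 0.127 with the block).

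MYBC1, described as a brake on freezing tolerance, had signals of 561.1, 484.4 and 552.4 in dark Ler and 441.8, 400.9 and 426.9 in dark atbzip16. All 3 atbzip16 arrays were below the Ler arrays. The log2 difference was -0.33 (95% interval -0.63 to -0.03) and did not pass (limma adjusted p = 0.799, and 0.31 with the block). In red light MYBC1 had 510.1, 493.1 and 420.6 in Ler and 420.1, 364.6 and 427.1 in atbzip16, which overlap (log2 difference -0.23, 95% interval -0.53 to 0.07). Its log2 light response was -0.17 in Ler (95% interval -0.47 to 0.13) and -0.07 in atbzip16 (95% interval -0.37 to 0.23).

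**Figure D2:**
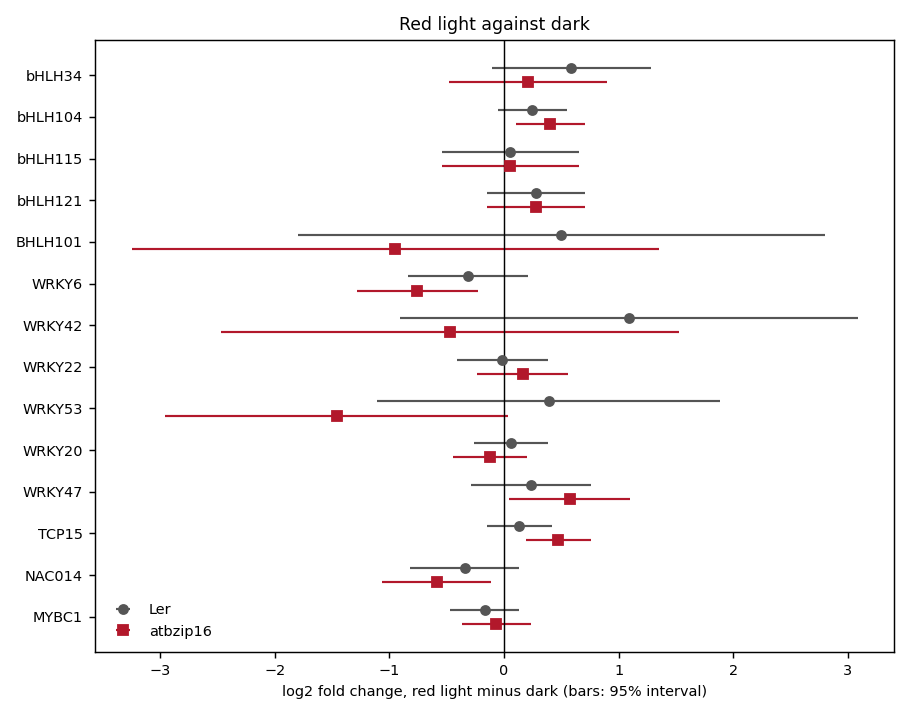
Log2 fold change of red light against dark (horizontal axis) for each of the 14 genes in Ler (circles) and atbzip16 (squares), with 95% intervals from limma. The intervals of TCP15, WRKY6, NAC014, bHLH104 and WRKY47 in atbzip16 lie on 1 side of 0, and those of WRKY42, BHLH101 and WRKY53 are the widest.

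For the light response of the wild type, limma called 0 of the 14 genes, without the block and with it, and 0 had an unadjusted p under 0.05. Of all 22746 probe sets tested, 7.25% were called, and 15.4% with the block, and 19.3% had an unadjusted p under 0.05. Only 1 of the 14 (7.14%) had groups that did not overlap, against 23.4% of all probe sets. The median log2 fold change was 0.18 over the 14 and -0.05 over all probe sets, and the 14 ran from -0.34 (NAC014) to 1.09 (WRKY42). For 10 of the 14 genes the 95% interval excluded a change of 2-fold or more in either direction. It did not for BHLH101, bHLH34, WRKY42 and WRKY53. Median centring of the arrays adds 0.14 to every log2 light response in Ler and 0.11 to each in atbzip16, so values of that size have no settled direction.

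For the light response of atbzip16, limma called 1 of the 14 genes, TCP15, as higher, where 8.86% of all probe sets were called, 4.55% as higher and 4.3% as lower. With the replicate block it called 4, bHLH104 and TCP15 as higher and NAC014 and WRKY6 as lower, where 17.6% of all probe sets were called, 8.84% as higher and 8.81% as lower. Groups did not overlap for 4 of the 14 (28.6%), bHLH104, TCP15, WRKY47 and WRKY6, against 27.2% of all probe sets. An unadjusted p under 0.05 was found for 5 of the 14 (35.7%), these 4 and NAC014, against 21.2% of all probe sets. The share of the 14 was thus below that of all probe sets for the limma calls, near it for the overlap of groups, and above it with the block and at the unadjusted p, on counts of 1 to 5 genes. The median log2 fold change was -0.01 over the 14 and 0.00 over all probe sets. The 95% interval excluded a 2-fold change for 8 of the 14, and did not for BHLH101, NAC014, WRKY42, WRKY47, WRKY53 and WRKY6.

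The genotype comparison asks whether the atbzip16 line had other levels of these factors than the wild type. In the dark, limma called 0 of the 14, where 0.0791% of all probe sets were called, and 0 with the block, where 1.12% were. MYBC1 and WRKY6 had an unadjusted p under 0.05, as did 5.78% of all probe sets. Groups did not overlap for 4 of the 14 (28.6%), WRKY20, WRKY53 and WRKY6 with higher and MYBC1 with lower signals in atbzip16, against 11.6% of all probe sets. For WRKY53 the dark atbzip16 signals began at 49.5, and the highest dark Ler signal was 45.8. The median log2 difference was 0.04 over the 14 and -0.02 over all probe sets.

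In red light, limma called 0 of the 14 between genotypes, where 0.0264% of all probe sets were called, and 0 with the block, where 0.317% were. TCP15 had an unadjusted p under 0.05, as did 5.32% of all probe sets, and its log2 difference was 0.38 (95% interval 0.09 to 0.66, limma adjusted p = 0.762, and 0.286 with the block). Groups did not overlap for TCP15 and WRKY47 (14.3% of the 14), both with higher signals in atbzip16, against 10% of all probe sets. This comparison and the light response of atbzip16 share the red-light atbzip16 arrays, in which TCP15 and WRKY47 had their highest signals. For 11 of the 14 the 95% interval excluded a 2-fold difference between genotypes in red light, and for 10 of the 14 it did in the dark. Those it did not exclude were BHLH101, WRKY42 and WRKY53 in both conditions and WRKY6 in the dark.

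**Figure D3:**
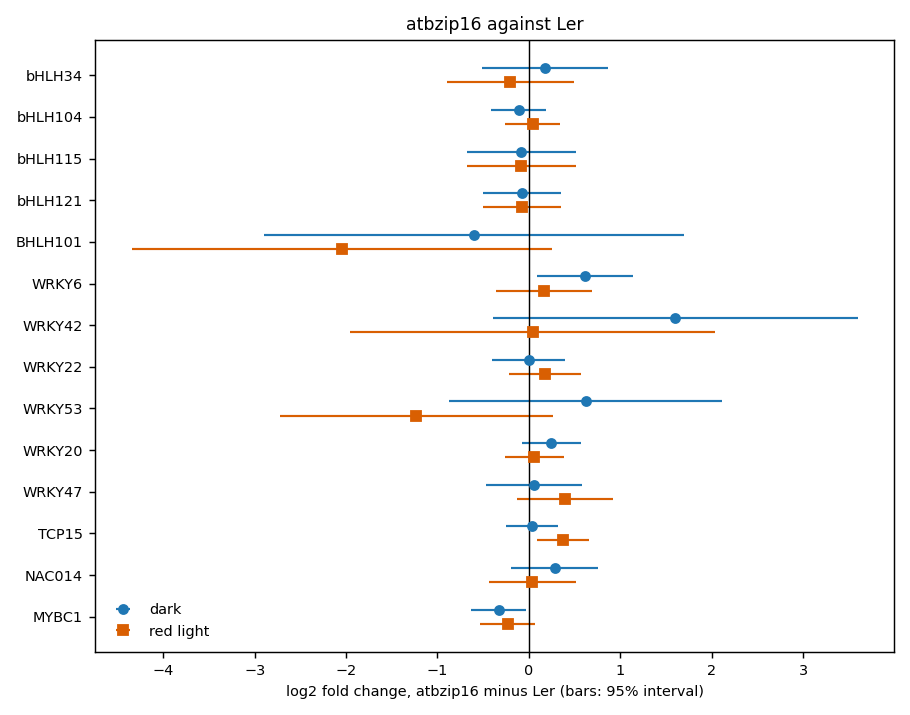
Log2 difference of atbzip16 from Ler (horizontal axis) for each of the 14 genes in the dark (circles) and in red light (squares), with 95% intervals from limma. Outside the 3 genes of low signal, every value lies between -0.33 (MYBC1 in the dark) and 0.61 (WRKY6 in the dark).

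The difference between the light responses of the 2 genotypes was called by limma in 0 of the 14 and in 0% of all probe sets, and with the block 0 of the 14 and 0.22% of all probe sets were called. None of the 14 had an unadjusted p under 0.05, against 4.1% of all probe sets. The smallest p values were those of WRKY53 (-1.85, 95% interval -3.96 to 0.26) and TCP15, followed by WRKY6 (-0.44, 95% interval -1.19 to 0.30), WRKY42 (-1.56, 95% interval -4.39 to 1.26) and WRKY47 (0.34, 95% interval -0.41 to 1.08). The value of WRKY53 was -0.98 without red-light atbzip16 replicate 2 and ran to -2.6 without replicate 3 of that group. That of WRKY42 ran from -0.87 without dark atbzip16 replicate 1 to -2.41 without dark atbzip16 replicate 2, and was -0.97 without red-light Ler replicate 2. A light response called in atbzip16 and not in Ler was therefore not shown to differ between them. For 8 of the 14 the 95% interval excluded a 2-fold difference between the light responses.

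In 4 of the 14 genes the arrays numbered 1 stood apart from those numbered 2 and 3 in every group, a comparison made after the values were seen. In bHLH115 the replicate 1 signals were 789.2 in dark Ler, 801.8 in dark atbzip16, 781.0 in red-light Ler and 708.7 in red-light atbzip16. Its other 8 signals lay between 1076.9 and 1329.5, so the numbers separated completely while the 4 groups overlapped. Averaged over the groups, replicate 1 was lower than replicates 2 and 3 by a log2 value of -0.70 (SE 0.07, limma adjusted p = 1.5e-05 in the fit with the block). In bHLH121 (0.42, adjusted p = 0.00225), NAC014 (0.42, adjusted p = 0.0102) and WRKY22 (0.36, adjusted p = 0.00849), replicate 1 was higher by limma and was the highest array of each group. These 4 of the 14 (28.6%) stand against 20.6% of all probe sets called for the same difference, 9.09% as higher and 11.5% as lower in replicate 1. For TCP15 the difference was 0.04 (SE 0.09, limma adjusted p = 0.827). Without the arrays of replicate 1, limma called TCP15 (0.59, adjusted p = 0.00142) and WRKY6 (-0.66, adjusted p = 0.0413) for light in atbzip16, where 19% of all probe sets were called, so that 2 of the 14 (14.3%) is below that share. None of the 14 was called in the other comparisons of this fit, where calls over all probe sets were 17.3% for light in Ler, 2.22% and 1.62% between genotypes in the dark and in red light, and 0.747% for the interaction.

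**Figure D4:**
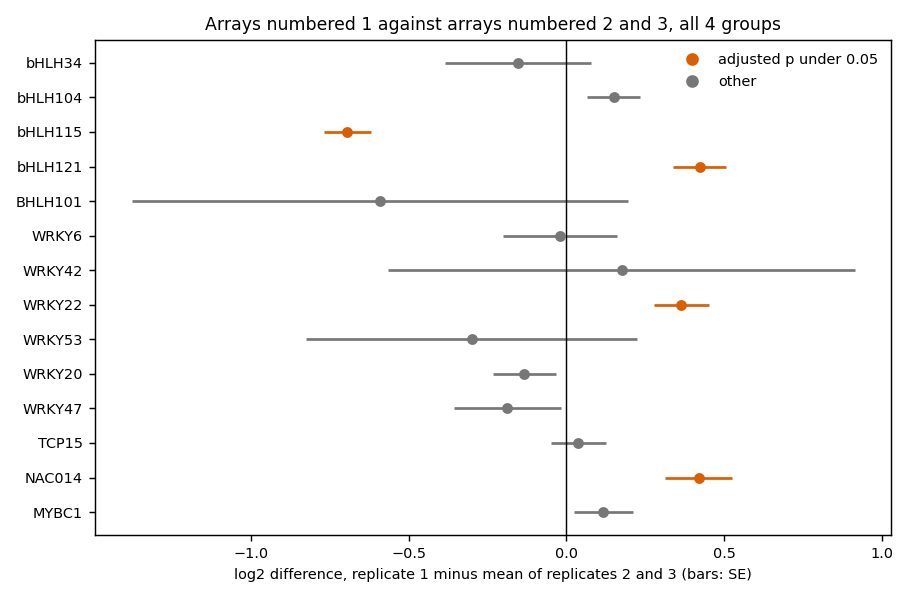
Log2 difference of the arrays numbered 1 from the mean of those numbered 2 and 3, averaged over the 4 groups (horizontal axis), for each of the 14 genes, with bars of 1 standard error and colour for an adjusted p under 0.05. bHLH115 lies lowest among the called genes at -0.70, and bHLH121, NAC014 and WRKY22 lie between 0.36 and 0.42.

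The same families hold genes known by other names. Of 4 genes with a synonym, but not a symbol, that fits the rule, ILR3 (bHLH105), PHV (ATHB9), ZAP1 (WRKY1) and AT1G22490 (bHLH94), limma called none in any comparison, with or without the block. AT1G22490 had the largest log2 light response of the 4, 1.32 in Ler (95% interval 0.36 to 2.29, limma adjusted p = 0.1) and 1.29 in atbzip16 (95% interval 0.33 to 2.26, adjusted p = 0.0972). Its signals were 40.9, 45.9 and 102.8 in dark Ler and 160.2, 139.7 and 135.7 in red-light Ler, which do not overlap. Another list, of 109 family members under other names, left out BIM1, a bHLH factor, and HAT2, an HD-Zip factor, whose light calls are given below. Of these 109, 14 had a probe set annotated to 1 gene, and limma called 0 of them for light in Ler or in atbzip16. Of all probe sets, 7.25% were called for light in Ler and 8.86% in atbzip16. With the block it called SPT, a growth-restraining bHLH factor, as lower in Ler (-0.38, limma adjusted p = 0.0491) and in atbzip16 (-0.41, adjusted p = 0.0287). It also called SPCH, which starts the stomatal lineage, as higher in atbzip16 (1.53, adjusted p = 0.0495). The dark and red-light arrays overlapped for SPT in Ler and for SPCH in atbzip16. With the block, 15.4% of all probe sets were called for light in Ler and 17.6% in atbzip16. MYC3, a bHLH factor of jasmonate signalling on the same list, had signals of 1606.0, 1592.2 and 1255.2 in dark Ler and 809.0, 882.6 and 715.2 in dark atbzip16. All 3 atbzip16 arrays were lower, and MYC3 was called by limma as lower there (log2 difference -0.88, adjusted p = 0.034). In red light its log2 difference was -0.74, called only with the block (limma adjusted p = 0.13, and 0.00661 with the block).

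Lists of factors of light signalling and of seed development were read in the same fits. For light, limma called 7.25% of all probe sets in Ler and 8.86% in atbzip16, and with the block 15.4% and 17.6%. Of 47 listed light factors 8 were measured, and limma called 2 as lower in red light in Ler, HAT2, an auxin-responsive HD-Zip factor (-0.68), and BIM1, a bHLH partner in brassinosteroid signalling (-0.89). In atbzip16 it called BIM1 (-1.16), and with the block it called 3 as lower in each genotype. Of 30 seed factors 5 were measured, and AGL67 and EEL, a bZIP factor of late seed development (-2.33 and -2.93), fell in both genotypes by limma. AGL67 signals were 487.6 to 1742.4 in dark Ler and 1780.5 to 3445.7 in dark atbzip16, against 3.3 to 21.9 in red-light Ler and 1.8 to 45.8 in red-light atbzip16. The red-light signals lay at the low end of the arrays, so the size of its fall is not given. With the block, BZIP53 was called as higher in both (0.47 and 0.42). EEL signals were 468.2 to 1055.7 in dark Ler and 83.2 to 193.8 in red-light Ler. Whether these lists differ from the 14 was not tested.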

How the data were processed

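The files hold 1 linear intensity per probe set and array, deposited by the authors for 12 arrays. The submitters' processing notes name MAS5, with no version. Checked on the values, each array was scaled to a mean of about 500 without its extremes. Groups came from the sample titles. In 6 samples the description disagrees with the title on light, and the title was followed. The extract protocol also mentions polysome RNA, but each sample is labelled as total RNA.

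Of 22746 probe sets that are not controls, 14016 were in the platform annotation and 13513 had 1 gene. Names were updated through a TAIR10.1 gene table. Log2 signals without a pseudocount or filter were fitted over all 22746 with limma 3.58.1 in R 4.3.3 (4 group means, eBayes with trend, 5 contrasts), with Benjamini-Hochberg adjustment over all probe sets and calls under 0.05. Standard errors and 95% intervals are limma's. The script was tested on simulated data.

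Residuals of the 18 pairs of arrays with the same number in different groups correlated at 0.164 to 0.505. The pairs of replicate 1 lay at 0.317 to 0.505, those of replicate 2 at 0.164 to 0.286 and those of replicate 3 at 0.167 to 0.292. Pairs of different number in different groups had a median of -0.235 and reached 0.248. For the 14 genes, values with the replicate number as a block are given wherever they change a call, and for some other results. The members and lists were chosen with earlier results of these data known. Named genes were the called members, those with the smallest p in each comparison and family, and up to 4 of each role list. As there are only 14 members, all are given. The comparison of replicate 1 with replicates 2 and 3, and the fit without replicate 1, were added after the data were seen. Alternatives were median centring, quantile normalization, a pseudocount of 16, a filter of the lowest 30% of signals, no variance trend, the block, and each array left out.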

Additional observations from a re-analysis of the deposited data

How the results depend on the processing

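The count of 0 of 14 for the light response in Ler, for the genotype differences in the dark and in red light and for the interaction was also 0 under each alternative run: median centring, quantile normalization, a pseudocount of 16, the low-signal filter, no variance trend, the replicate block, each array left out, and the arrays of replicate 1 left out. The count of 1 for the light response in atbzip16 was 2 with the low-signal filter (WRKY6 added, adjusted p = 0.0476), 0 without the variance trend, 4 with the replicate block, 2 without the arrays of replicate 1, and 0 to 2 over the fits without 1 array. Against 2015 calls over all probe sets, the first of these fits made 2224 (filter, of 15922 tested), 1386 (no trend), 4014 (block) and 4321 (no replicate 1). Among these, the members' count was higher in the fits with more calls and lower in the one with fewer. Fits without 1 array did not all follow this order. Without dark atbzip16 replicate 1 limma made 1527 calls and called 1 member. Without red-light atbzip16 replicate 1 it made 1943 calls and called 0 members. WRKY6 was called in 2 of the 12 fits without 1 array. The cause of these shifts was not tested. Over all probe sets, calls with the block were 3508 against 1649 for light in Ler, 255 against 18 and 72 against 6 between genotypes in the dark and in red light, and 50 against 0 for the interaction. Without replicate 1 they were 3943, 504, 368 and 170. Without the trend they were 1057, 3, 1 and 0. Between genotypes they were also 6 and 4 with median centring, 31 and 8 with the pseudocount, and 10 and 6 with the filter. Choosing another probe set, the platform's own symbols or leaving out other protein classes could change nothing, since each of the 14 has 1 probe set, the same symbol in both tables and a transcription factor annotation.

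The sign of some values that did not pass turned. For light in Ler, WRKY22 became 0.13 with median centring and 0.071 with quantile normalization, and ran from -0.16 to 0.11 without 1 array. bHLH115 ran from -0.17 to 0.31 and WRKY20 from -0.040 to 0.19 without 1 array, and WRKY6 was 0.12 without replicate 1. For light in atbzip16, MYBC1 became 0.044 with median centring and 0.021 with quantile normalization, and ran from -0.11 to 0.0025 without 1 array. BHLH101 (0.92) and WRKY42 (0.58) turned without replicate 1. Without 1 array, BHLH101 ran from -1.88 to 0.32, WRKY42 from -1.32 to 0.22, bHLH115 from -0.11 to 0.34 and bHLH34 from -0.12 to 0.45. Signals near background limit WRKY42, BHLH101 and WRKY53, and 3 arrays per group limit all values.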
